A study of Mus musculus with 6 samples.

Results

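Oxidative phosphorylation was described here in mouse spleen cells through the 110 genes, of 31053 in the RNA table, whose symbols start with Nduf, Sdh, Uqcr, Cox4, Cox5, Cox6, Cox7, Cox8, Atp5 or mt-. Of these, 97 are encoded in the nucleus and 13 in the mitochondrial genome, and the sums of the 2 sets were kept apart. The nuclear set held 36 genes of complex I, 4 of complex II, 8 of complex III, 18 of complex IV, 16 of complex V, 12 assembly factors and 3 genes placed in no complex (Cox7a2l, Ndufa4l2 and Atp5s). The rule used names only, so members with other names (Cyc1 of complex III, for example) were not in the sums.

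Droplet RNA and antibody-tag libraries had been made from the spleens of C57BL/6 mice, with 5 animals pooled per group. The groups were young mice of 3 months given saline, aged mice of 20 months given saline, and aged mice of 20 months given the platelet chemokine PF4 at 5 µg/mL. All 3 groups received 8 tail-vein injections of 100 µL over 24 days, so the saline groups carried the same handling as the PF4 group. The deposited matrix held 3 libraries told apart only by a number at the end of each cell barcode, and no label tied a number to a group. The libraries are therefore called 1, 2 and 3, no age or PF4 comparison was made, and differences between them have no replicate check.

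The respiratory chain passes electrons from complex I (NADH dehydrogenase) and complex II (succinate dehydrogenase) through complex III (cytochrome bc1) to complex IV (cytochrome c oxidase). Complex V, the ATP synthase, uses the resulting proton gradient to make ATP. Mitochondrial DNA encodes core subunits of complexes I, III, IV and V, and nuclear genes encode all of complex II and the remaining subunits, so every complex but complex II needs both genomes. In droplet data a high mitochondrially encoded share is also commonly used as a sign of damaged cells, from which cytoplasmic RNA has leaked.

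The 29005 barcodes fell to 27892 when those with 300 to 5000 detected genes were kept, and to 20161 when at most 10% of RNA UMIs (unique molecular identifiers, counts of captured molecules) could come from the mt- genes. Library 1 kept 4199 barcodes, library 2 kept 7511 and library 3 kept 8451, with median depths of 3625 to 3765 RNA UMIs per barcode. The kept barcodes shared 10, 13 and 20 barcode sequences between pairs of libraries, and these were left in. Cells were clustered without the members, and classes were named from marker genes with the ending -like. Unnamed clusters held 17.5% of kept barcodes in library 1, 18.6% in library 2 and 6.12% in library 3. Levels are given as CPM, UMIs scaled to 1000000 RNA UMIs. Because 3′ ends were counted, CPM was not divided by gene length.

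Members differed widely in level. Atp5e, the epsilon subunit of ATP synthase, was the most counted nuclear member at 731.3 CPM, and 77.3% of kept barcodes had at least 1 UMI of it. Cox8a (597 CPM), Cox4i1 (516 CPM) and Cox7c (496 CPM) led complex IV, and Uqcrh (552 CPM) led complex III, followed by Uqcrq (204 CPM) and Uqcr10 (183 CPM). In complex V, Atp5g2 reached 464 CPM and Atp5h 461 CPM. Complex I was more even, with Ndufa13 at 262 CPM, Ndufa6 at 232 CPM and Ndufa2 at 229.8 CPM. The complex II subunits were low, from 103 CPM for the catalytic Sdha through 85.7 CPM for Sdhb and 36.1 CPM for Sdhd to 30.2 CPM for Sdhc. Assembly factors, which help build the complexes and are not part of them, had a median of 21.2 CPM, led by Ndufaf8 (78.5 CPM), Ndufaf4 (55.7 CPM) and Sdhaf2 (47.6 CPM). There were 3 identifiers with no UMI (Cox8b, Cox8c and a duplicate of Atp5o). By summed counts, complex V made up 30.2% of nuclear member UMIs, complex I 29.3%, complex IV 25.3%, complex III 9.82% and complex II 1.68%.

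The mt- genes lie on a compact circular genome and some overlap. In the mm10 annotation (GENCODE vM21), mt-Atp8 ends inside mt-Atp6 with 43 shared bases, and mt-Nd4l ends inside mt-Nd4 with 7. Both shared stretches are shown in capitals with 10 flanking bases, since reads there cannot be given to 1 gene, and the levels of these neighbours are uncertain to that extent.
mt-Atp8 and mt-Atp6, chrM:7917-7979, + strand: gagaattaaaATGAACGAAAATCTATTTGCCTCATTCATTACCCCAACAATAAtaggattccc
mt-Nd4l and mt-Nd4, chrM:10157-10183, + strand: acctactacaATGCTAAaaattattct
Among kept barcodes mt-Atp6 gave 18.8% of mt- UMIs, mt-Co1 16.1%, mt-Co2 15.6%, mt-Co3 13.8% and mt-Cytb 9.69%. The complex I genes were lower, from mt-Nd4 at 6.99% through mt-Nd2 at 5.72%, mt-Nd1 at 4.33%, mt-Nd4l at 3.39%, mt-Nd5 at 3.15% and mt-Nd3 at 1.31% to mt-Nd6 at 0.155%. mt-Atp8 gave 0.936%. mt-Nd6, the one gene on the other strand, was the least counted of the 13.

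Promoters of nuclear members were searched for the palindromic NRF1 motif (the 10 letters in capitals below), since NRF1 is a known activator of respiratory genes, and for the ETS-type motif CCGGAAGT, on both strands. RefSeq windows (GRCm38.p6, 250 bases before to 50 after the gene start) matched 78 of 96 nuclear symbols. The NRF1 letters stood in 7 members (8.97%) and in 1.07% of all 27025 genes with a window. The ETS letters stood in 5 members (6.41%) and in 4.31% of all genes. The NRF1 matches fell in members of complexes I, III, IV and V and in 2 assembly factors, and are shown with the motif in capitals.
Atp5g2, chr15:102671070-102671099, - strand: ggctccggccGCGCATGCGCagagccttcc
Atp5k, chr5:108434430-108434459, - strand: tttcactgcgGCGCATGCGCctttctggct
Cox6a1, chr5:115349101-115349130, - strand: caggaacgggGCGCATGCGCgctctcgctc
Ndufa11, chr17:56717692-56717721, + strand: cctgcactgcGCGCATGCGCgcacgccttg
Uqcrc1, chr9:108936668-108936697, + strand: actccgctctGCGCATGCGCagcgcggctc
Ndufaf4, chr4:24897960-24897989, + strand: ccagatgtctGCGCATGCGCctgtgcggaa
Ndufaf5, chr2:140170652-140170681, + strand: agtcccgttgGCGCATGCGCctaatagaaa
These are matches of letters, and binding was not measured.

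Across the 3 libraries the nuclear and mitochondrial sums moved in opposite order. With the 10% limit, nuclear members took 1.57% of RNA UMIs in library 1 (exact 95% binomial interval 1.56 to 1.58), 1.55% in library 2 (1.55 to 1.56) and 1.45% in library 3 (1.45 to 1.46). The mt- genes took 3.11% in library 1, 3.84% in library 2 and 3.89% in library 3. The mt- UMIs per nuclear member UMI were 1.98 in library 1, 2.47 in library 2 and 2.68 in library 3. Intervals cover counting error only. Cell make-up differed between libraries, and haemoglobin took 6.21% of RNA UMIs in library 1 and 0.223% in library 2, so pooled shares are not those of any 1 cell type.

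**Figure D1:**
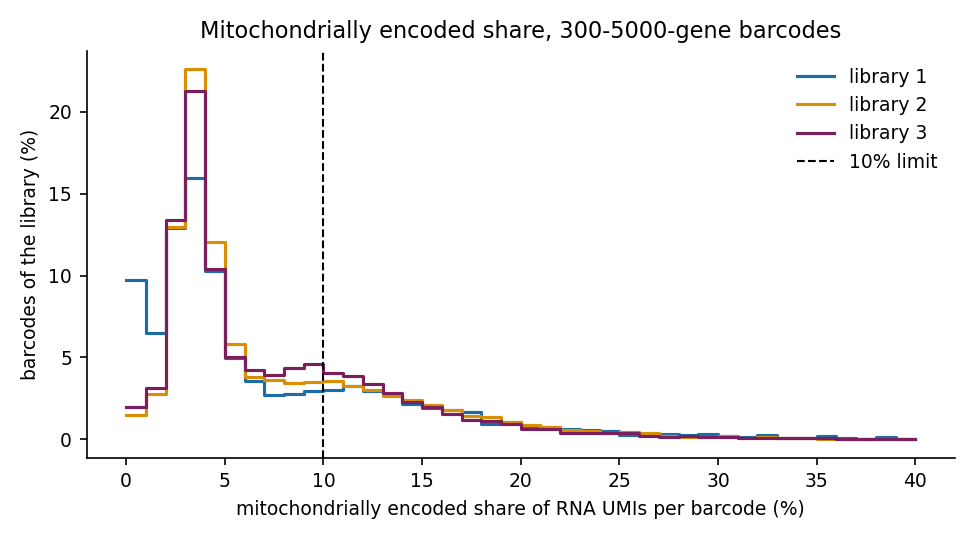
Percentage of each library's 300 to 5000-gene barcodes (vertical axis) in bins 1 percentage point wide of the mt- share of RNA UMIs (horizontal axis, %), 1 line per library, with the 10% limit dashed. All 3 lines peak between 3 and 4% and have a second, broad shoulder that the 10% limit cuts through, and library 1 has more barcodes under 1%.

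The 10% limit removed 7731 of 27892 barcodes (27.7%), and the share removed was alike in the libraries, at 27.6% in library 1, 28.0% in library 2 and 27.6% in library 3. It cut through a broad range and not a gap, with 1079 barcodes at 9 to 10% and 1015 at 10 to 11%. Classes lost very different shares. Macrophage-like barcodes lost 30.3% and B-like barcodes 30.6%, and within the B-like class library 1 lost 36.7%, library 2 lost 30.4% and library 3 lost 28.4%. T-like barcodes lost 16.5%, dendritic-like 13.3%, monocyte-like 9.98% and NK-like 6.51%. Neutrophil-like barcodes lost 1.22% (9 of 740) and plasma-like 2.19%. Without the limit, the mt- share was 4.40% in library 1, 4.99% in library 2 and 5.14% in library 3, and the nuclear share was 1.498%, 1.463% and 1.368% in the same order.

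Barcodes over the limit were poor in nuclear members as well. Nuclear members took 0.805% of their UMIs outside the mt- genes, against 1.57% in kept barcodes. The median depth was 1049 RNA UMIs over the limit and 3707 under it. Cytosolic ribosomal protein genes took 8.97% of non-mt- UMIs over the limit and 25.1% under it, while Malat1, a long non-coding RNA held in the nucleus, took 8.94% and 3.42%. With counts scaled to nuclear-encoded UMIs, 62 of 88 tested nuclear members were called lower over the limit in B-like barcodes and 0 higher (of all genes of at least 50 CPM, 18.4% were called lower and 32.0% higher). Of all 9783 genes tested as the members were, 892 were lower and 1694 higher. A call required a fold of 1.5 and 95% Poisson intervals that did not overlap in each library. The median log2 difference was -1.10 for nuclear members and 0.34 for all tested genes. In T-like barcodes 38 of 88 were lower and 1 higher, with medians of -1.02 and 0.57 (of all genes of at least 50 CPM, 8.10% lower and 20.8% higher). Of all 10155 genes tested there, 345 were lower and 905 higher. Ribosomal protein genes fell along with them, with 81 of 89 lower in B-like and 79 of 90 in T-like barcodes. These counts cover the members that reached 5 CPM in at least 1 of the compared sets.

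**Figure D2:**
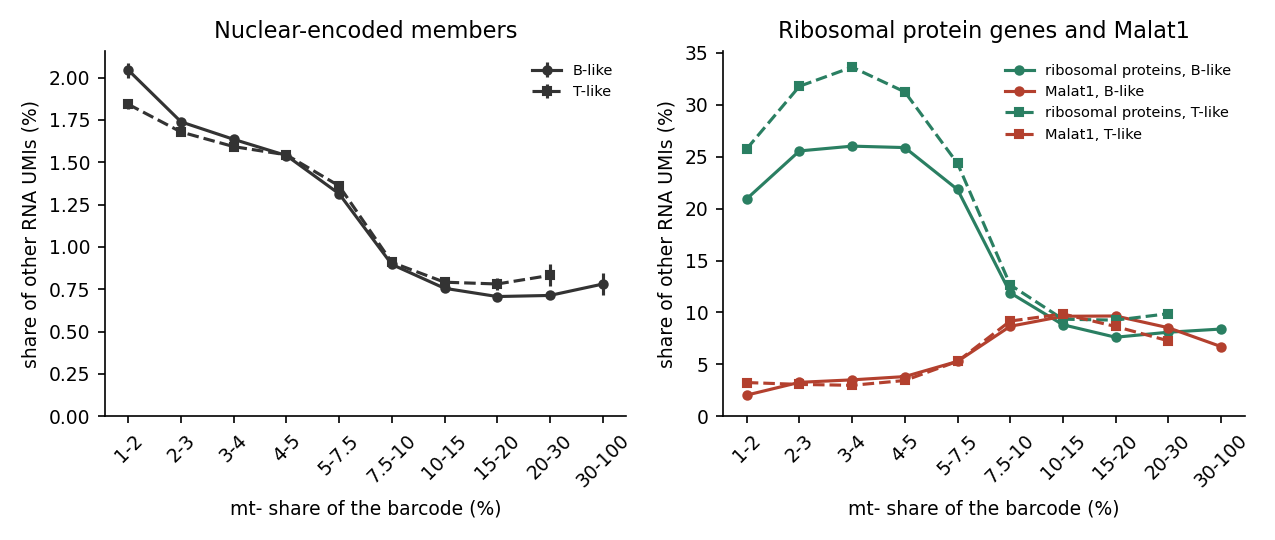
Left, nuclear members as a share of RNA UMIs outside the mt- genes (vertical axis, %) in bins of the barcode's mt- share (horizontal axis, %), for B-like and T-like barcodes, with exact 95% intervals. Right, the same for ribosomal protein genes and Malat1; nuclear members and ribosomal protein genes drop between the 5 to 7.5% and the 7.5 to 10% bins, before the limit is reached, and Malat1 rises.

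The change lay below the 10% limit. In B-like barcodes nuclear members took 1.74% of non-mt- UMIs at an mt- share of 2 to 3%, 1.54% at 4 to 5%, 1.31% at 5 to 7.5%, 0.897% at 7.5 to 10% and 0.756% at 10 to 15%. Within the 7.5 to 10% range the value was 0.868% in library 1, 0.854% in library 2 and 0.930% in library 3, so each library had dropped there. Depth moved with it. B-like barcodes of 1000 to 1500 UMIs gave 0.712% when kept and 0.688% when over the limit, close to each other, whereas at 2500 to 5000 UMIs they gave 1.51% and 0.858%. One B-like cluster (cluster 2) held 2428 kept barcodes at a median of 1168 UMIs, with a nuclear share of 0.687% and an mt- share of 7.62%, and 3290 of its 5718 barcodes were over the limit. The part of damage, depth and cell state in this was not tested.

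Cell classes differed more in the mt- share than in the nuclear share. Pooled over libraries, nuclear members took 1.90% of RNA UMIs in monocyte-like, 1.86% in dendritic-like, 1.75% in NK-like, 1.54% in T-like, 1.49% in macrophage-like, 1.46% in B-like and 1.08% in neutrophil-like barcodes. The mt- share ran in another order, highest in macrophage-like (4.64%) and B-like (4.41%) barcodes, then T-like (3.53%), NK-like (2.98%), dendritic-like (2.76%), monocyte-like (2.57%) and neutrophil-like (1.05%) barcodes. The B-like values include the shallow cluster 2 described above. Cluster 1, the main B-like cluster, had nuclear shares of 1.57%, 1.53% and 1.46% in libraries 1, 2 and 3. Its mt- shares were 3.82%, 3.92% and 3.88%. The part of cluster 2 in the place of B-like barcodes was not tested. The mt- UMIs per nuclear member UMI ranged from 3.11 in macrophage-like to 0.967 in neutrophil-like barcodes. Over the 26 clusters the 2 shares had a Pearson r of -0.26 and a Spearman rho of -0.29, given as a description, since clusters share libraries and a fixed sum. Gating on antibody tags in place of RNA gave similar values, with a nuclear share of 1.44% and an mt- share of 4.38% in the B gate, and 1.60% and 3.33% in the T gate.

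**Figure D3:**
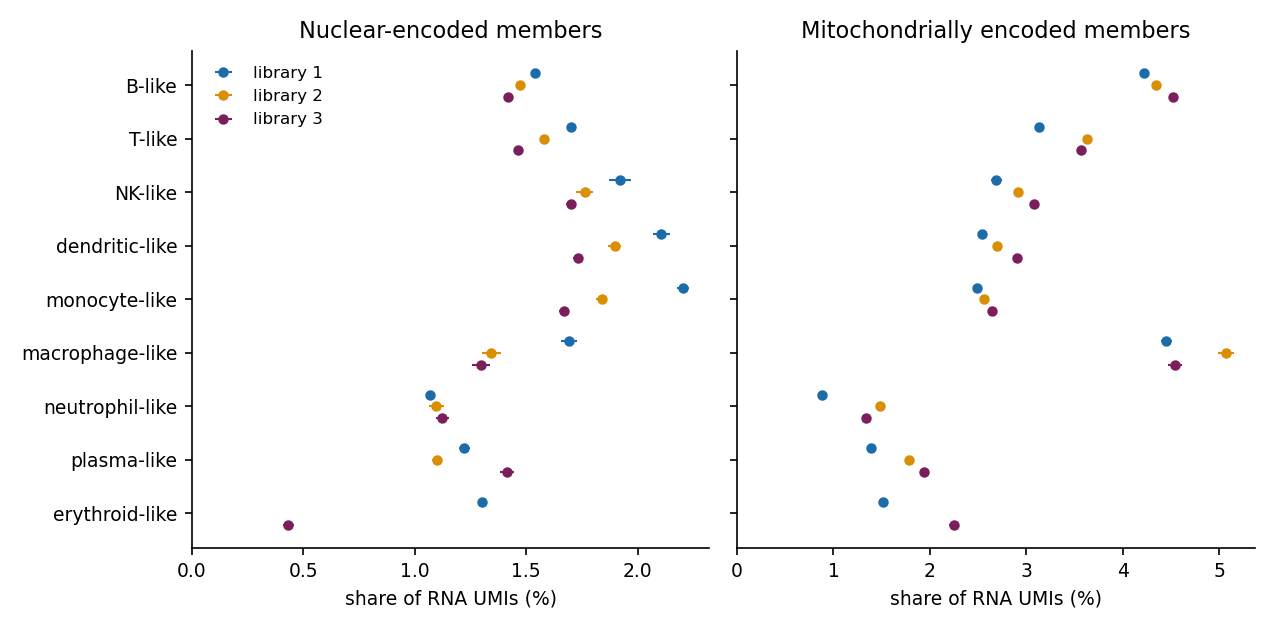
Nuclear members (left) and mt- genes (right) as a share of RNA UMIs (horizontal axis, %) in each class with at least 20 kept barcodes in the library, 1 point per library with exact 95% intervals, often narrower than the point. Library 1 lies right of library 3 on the left panel in B-like, T-like, NK-like, dendritic-like, monocyte-like and macrophage-like barcodes, and library 1 has the lowest mt- share in every named class drawn.

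Plasma-like and erythroid-like barcodes were dominated by 1 kind of product. Immunoglobulin took 48.9% of RNA UMIs in plasma-like barcodes, where nuclear members took 1.22% of all RNA UMIs and 2.45% once haemoglobin and immunoglobulin were left out. Haemoglobin took 45.3% in erythroid-like barcodes, where the same values were 1.21% and 2.22%. The erythroid-like class joined 2 clusters that differed in the members. Cluster 21, with Klf1 and Aqp1 among its leading genes, had a nuclear share of 1.80%, and cluster 22, with Hba-a2 among its leading genes, had 0.435%. Erythroid-like barcodes came mostly from library 1 (407 of 477 kept), and with 19 kept in library 2 the class was left out of the member calls.

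Single members were compared between each class and B-like barcodes, cluster 2 included, with the same rule for a call. For monocyte-like barcodes, 17 of 89 nuclear members were higher and 2 lower, against 18.6% higher and 15.6% lower among all 9959 genes tested and 28.7% and 22.4% among genes of at least 50 CPM. The count of calls was thus not above that of genes in general. Their median log2 difference was 0.33, against -0.15 for all genes. The higher members spanned every complex, among them Sdhd (62.6 against 33.4 CPM, 1.87-fold), a membrane anchor of complex II, Atp5c1 (370.1 against 201.4 CPM, 1.84-fold), the ATP synthase gamma subunit, and Uqcrq (1.79-fold) of complex III. Cox4i1 stood at 818 against 479 CPM. Assembly factors were split, with Ndufaf7 higher at 2.21-fold and Ndufaf4 (0.422-fold) and Sdhaf4 (0.573-fold) lower. Of the 13 mt- genes 12 were lower, with a median of -0.86. With a 5% limit on the mt- share, 20 members were called in all, against 31, and at a fold of 2 there were 6.

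Dendritic-like barcodes followed a like pattern, with 12 of 90 nuclear members higher and 0 lower (background 12.6% higher and 10.3% lower, or 18.9% and 19.2% at 50 CPM or more) and 11 of 13 mt- genes lower. Their medians were 0.26 for nuclear members, -0.76 for mt- genes and -0.12 for all genes. Uqcrb reached 254 against 136 CPM, and Ndufc2 184 against 105 CPM. NK-like barcodes had 4 of 89 nuclear members higher (background 8.64% higher and 5.10% lower, or 15.4% and 10.3% at 50 CPM or more), namely Atp5h (655 against 379 CPM), Ndufa1 (1.66-fold), Cox8a (902 against 567 CPM) and Ndufv3 (1.54-fold), and 5 mt- genes lower. T-like barcodes had 2 higher and 1 lower of 88 (background 11.3% and 12.9%, or 12.4% and 16.3% at 50 CPM or more), with Cox7a2l, which is linked to respiratory supercomplexes, at 1.59-fold (301 against 189 CPM), Ndufv3 at 1.53-fold and Ndufs8 at 0.654-fold. Their mt- genes had a median of -0.32 and no call. With a 5% limit the dendritic-like calls were 14 in all, against 23, and with no limit NK-like calls were 17, against 9, and T-like calls 8, against 3. At a fold of 2 there were 2 in dendritic-like and 0 in NK-like and T-like barcodes.

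Macrophage-like barcodes had 3 called members. Sdhc, the other membrane anchor of complex II, had 80.8 CPM against 28.8 CPM in B-like barcodes (2.81-fold), and was at most 44.5 CPM in any other named class. Cox5a was higher at 1.91-fold and Ndufs7 lower at 0.660-fold, and these were the calls among 89 nuclear members (background 10.1% higher and 4.08% lower, or 17.2% and 10.2% at 50 CPM or more). None of the 13 mt- genes was called. All 3 calls were lost with a 5% limit on the mt- share, and that of Ndufs7 was lost with haemoglobin and immunoglobulin left out.

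Neutrophil-like barcodes were low in both sets. Of 88 nuclear members 28 were lower and 0 higher, and all 13 mt- genes were lower (background 17.6% lower and 11.3% higher, or 32.4% and 20.8% at 50 CPM or more). The share of nuclear members called lower was thus not above that of genes of at least 50 CPM. The nuclear median of -0.60 lay near the all-gene median of -0.78, while the mt- median was -2.36. Among the nuclear groups, assembly factors had the lowest median, -2.16, but only 3 of 12 were called lower. Ndufaf4 stood at 8.504 against 60.8 CPM and Sdhaf1 at 8.13 against 37.0 CPM. The 3 genes for the c subunit of ATP synthase fell together, Atp5g1 to 0.279-fold, Atp5g2 to 0.310-fold and Atp5g3 to 0.451-fold. Complex IV was nearer to B-like barcodes, with a median of -0.12 and Cox8a at 592 against 567 CPM. Neutrophil-like barcodes in library 1 included nearly all of cluster 23, led by the granule genes Ltf, Ngp and Camp; without that cluster 45 members were called, against 41 with it.

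**Figure D4:**
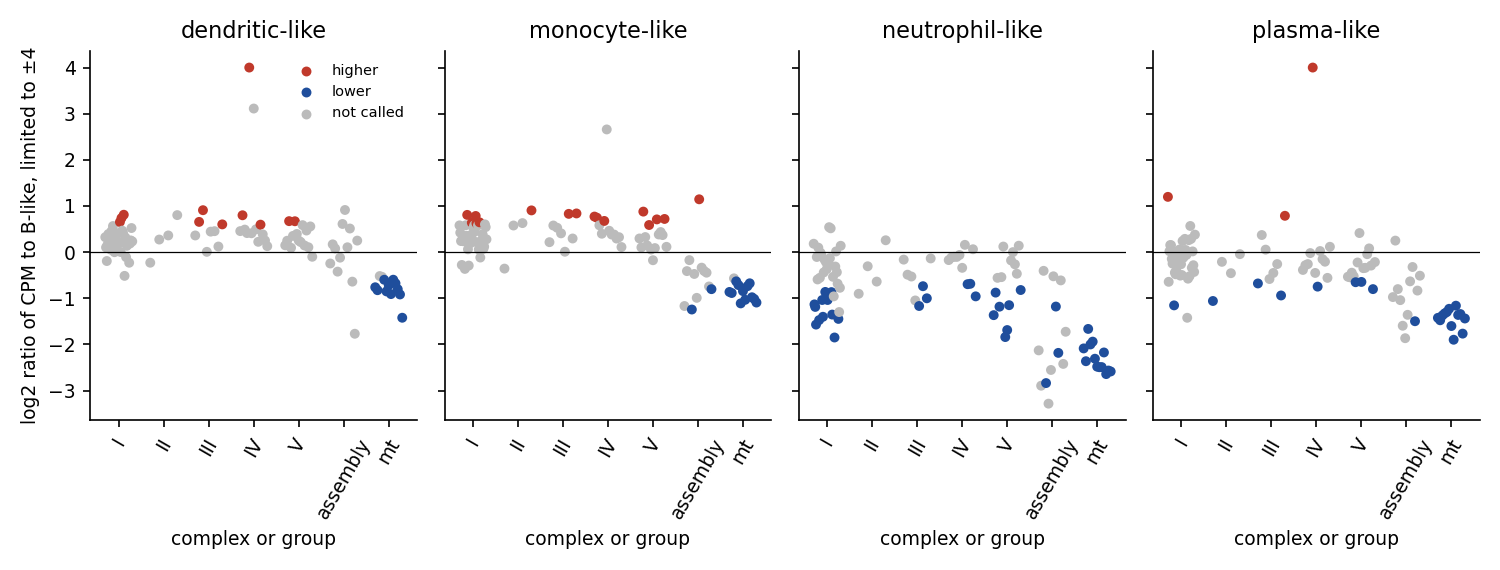
Log2 ratio of CPM to B-like barcodes (vertical axis, limited to 4 either way) for each tested member (points) of complexes I to V, the assembly factors and the mt- genes, in 4 classes, coloured by call; the 3 members in no complex are not drawn. Monocyte-like and dendritic-like nuclear members lie mostly above 0 with mt- genes below, and neutrophil-like mt- genes lie lowest.

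The result for plasma-like barcodes turned on the denominator. Of all RNA UMIs, 3 of 89 nuclear members were higher and 10 lower (background 3.97% higher and 33.1% lower, or 7.39% and 64.2% at 50 CPM or more), and 13 mt- genes were lower. With haemoglobin and immunoglobulin left out, 40 of 90 nuclear members were higher and 0 lower, and 3 mt- genes were lower. The background there was 8.67% higher and 7.75% lower among all genes tested, and none was taken at 50 CPM or more. The nuclear median moved from -0.29 to 0.69, and the median of all genes moved with it, from -1.08 to -0.06. Ndufa1 was higher with all UMIs counted, at 328 against 143 CPM.

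Tissue isoforms gave the largest differences between classes. Cox6a2, known as the heart and muscle isoform of a complex IV subunit, had 382 UMIs in dendritic-like barcodes (133 CPM) and 21 in B-like barcodes (0.636 CPM), a 210-fold ratio, and 0 UMIs in erythroid-like barcodes. Within the dendritic-like class, the 53 barcodes with a UMI of Siglech, a marker of plasmacytoid dendritic cells, had 379 of those UMIs (987 CPM, exact Poisson interval 890 to 1092), and 58.5% of them had at least 1. The other 352 barcodes had 3 UMIs (1.21 CPM, 0.249 to 3.53). The split held in library 1 (33 UMIs in 5 Siglech barcodes and 0 in 74 others), library 2 (58 in 14, 2 in 123) and library 3 (288 in 34, 1 in 155). Plasma-like barcodes were the next highest, with 105 UMIs (50.1 CPM) in 14 of 134 barcodes. No split by Siglech was made in this class, and the cell type of those 14 barcodes was not tested. The common isoform Cox6a1 ranged only from 166 CPM in neutrophil-like to 304 CPM in erythroid-like barcodes.

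Cox6b2, known as a testis isoform, had 276 UMIs in erythroid-like barcodes (87.9 CPM) and at most 10.5 CPM in any other named class. Within erythroid-like barcodes it reached 119 CPM in cluster 21 and 46.3 CPM in cluster 22, and 272 of its UMIs lay in library 1. Cox4i2 had 9 UMIs in macrophage-like barcodes (8.36 CPM), and Cox7a1 was at most 1.37 CPM in every named class. Ndufa4l2 had 4 UMIs in all and Cox8b had none, so no pattern could be read for either.

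Within named classes, library 1 tended to have the most of the nuclear members and the least of the mt- genes. In the unnamed barcodes, library 2 was lowest in 10 of 13 mt- genes and library 1 in 3. The order within clusters is given below for the nuclear share only. In monocyte-like barcodes the nuclear share was 2.20% in library 1 (2.18 to 2.23), 1.84% in library 2 (1.81 to 1.86) and 1.67% in library 3 (1.65 to 1.69). In T-like barcodes it was 1.70%, 1.58% and 1.46%, and in B-like barcodes 1.54%, 1.47% and 1.42%, in the same order. Dendritic-like, NK-like and macrophage-like barcodes had the same order, whereas neutrophil-like barcodes had the reverse (1.07%, 1.10% and 1.12%) and plasma-like barcodes were highest in library 3 (1.41%). From library 1 to 3, median depth fell in monocyte-like (7437, 7001 and 6028 UMIs) and macrophage-like barcodes (1992, 1947 and 1401 UMIs). It rose in B-like (2968, 3060.5 and 3265), T-like (4290, 4664 and 5100) and dendritic-like barcodes (6627, 6680 and 7195). In NK-like barcodes it was 3908, 3476 and 3707 UMIs. The part of depth in the library order was not tested.

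The order held in part of the cell subsets. Of 23 clusters with at least 20 kept barcodes in each library, the nuclear share was higher in library 1 than in library 3 in 20, and it ran from library 1 through 2 to 3 in 13. The T-like barcodes came mostly from clusters 5 and 6 in library 3, and cluster 12 held the most of them in library 1. Within cluster 5 the nuclear share was 1.58% in library 1, 1.54% in library 2 and 1.45% in library 3, and within cluster 6 it was 1.62%, 1.56% and 1.49%. Within cluster 12 it was 1.85%, 1.73% and 1.75%. In cluster 1, the main B-like cluster, it was 1.57%, 1.53% and 1.46%. Library 2 was highest in 5 clusters, among them the B-like cluster 11 (1.43%, 1.44% and 1.36%) and the T-like clusters 4 (1.16%, 1.25% and 0.958%) and 15 (1.76%, 1.77% and 1.65%). Library 3 was highest in 3 clusters, which were the plasma-like cluster 24, the neutrophil-like cluster 13 and the B-like cluster 2 (0.681%, 0.653% and 0.709%).

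The shift was spread over many members. Library 1 exceeded library 3 in 70 of 74 nuclear members in monocyte-like barcodes (94.6%, against 45.5% of all genes of at least 50 CPM), in 66 of 74 in dendritic-like (89.2% against 50.1%), in 65 of 72 in T-like (90.3% against 51.0%), in 62 of 74 in NK-like (83.8% against 44.2%) and in 59 of 73 in B-like barcodes (80.8% against 44.2%). Macrophage-like barcodes had 59 of 72 (81.9% against 46.2%). Most members did not follow this order in neutrophil-like (25 of 57, 43.9% against 24.5%) and plasma-like barcodes (20 of 70, 28.6% against 31.8%). The dendritic-like class held Siglech and other barcodes in unequal parts, 5 and 74 in library 1 and 34 and 155 in library 3. The part of this in its shift was not tested. Few members passed the call on their own. In B-like barcodes 0 of 73 nuclear members were called between libraries (background 1.33%), and in T-like barcodes 0 of 72 (background 7.23%). There were 3 of 74 in NK-like (background 8.30%), 10 of 74 in dendritic-like (12.8%), 15 of 74 in monocyte-like (16.8%), 16 of 72 in macrophage-like (15.9%), 15 of 57 in neutrophil-like (57.4%) and 14 of 70 in plasma-like barcodes (26.7%), none far above its background. All 15 in monocyte-like and all 16 in macrophage-like barcodes were highest in library 1. Among all genes called, 239 of 556 in monocyte-like and 229 of 557 in macrophage-like barcodes were highest in library 1.

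Named examples show the size. In monocyte-like barcodes Sdhb stood at 166 CPM in library 1, 124 in library 2 and 96.1 in library 3, and Atp5g3 at 234, 153 and 123 CPM. In macrophage-like barcodes Cox7b stood at 311, 130 and 136 CPM. Median depth in monocyte-like and macrophage-like barcodes also fell from library 1 to library 3, and its part was not tested. In the larger classes the gaps were smaller, as for Sdhb in B-like barcodes (105, 90.1 and 76.4 CPM), Uqcrfs1 in B-like barcodes (114, 92.1 and 82.8 CPM) and Cox8a in T-like barcodes (735, 609 and 513 CPM). The T-like clusters were held in different parts by the libraries, and the part of this in the Cox8a gap was not tested.

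Among the mt- genes, those with the largest library gaps were short. mt-Atp8 stood at 277 CPM in library 1, 404 in library 2 and 448 in library 3 in B-like barcodes, and at 233, 369 and 399 CPM in T-like barcodes. Its overlapping neighbour mt-Atp6 differed little in B-like barcodes, at 8228, 8301 and 8095 CPM. mt-Nd4l stood at 1170, 1497 and 1675 CPM in B-like and at 869.5, 1202 and 1346 CPM in T-like barcodes, and mt-Nd3 at 471, 537 and 655 CPM in B-like and at 325, 446 and 518 CPM in T-like barcodes. mt-Atp8 was called in B-like barcodes, and mt-Atp8, mt-Nd4l and mt-Nd3 in T-like barcodes. mt-Cytb and mt-Co2 were nearly level in B-like barcodes, at 4456, 4478 and 4382 CPM and at 7041, 6959 and 6924 CPM.

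**Figure D5:**
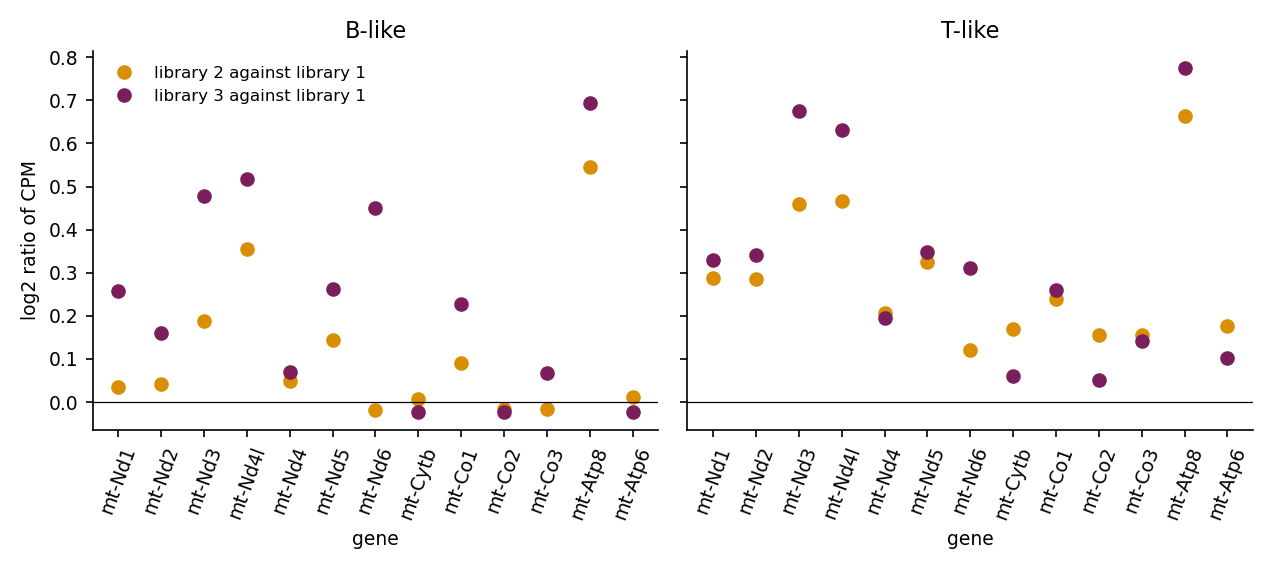
Log2 ratio of CPM in library 2 and in library 3 to library 1 (vertical axis) for the 13 mt- genes (horizontal axis), in B-like and T-like barcodes. mt-Atp8 lies highest in both panels, followed by mt-Nd4l and mt-Nd3, and mt-Atp6, mt-Co2 and mt-Cytb lie near 0 in B-like barcodes.

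Neighbouring pathways were counted from lists of genes around the chain. Among all tested genes, 18.6% were higher and 15.6% lower in monocyte-like barcodes, and 11.3% were higher and 17.6% lower in neutrophil-like barcodes. Of 15 tested glycolysis genes, 11 were higher than in B-like barcodes in monocyte-like and 8 in neutrophil-like barcodes, with 0 lower in either. In neutrophil-like barcodes Pkm, the pyruvate kinase, stood at 565 against 124 CPM, Hk3, a hexokinase, at 115 against 0.696 CPM, and Ldha, a lactate dehydrogenase, at 280 against 131 CPM. The tricarboxylic acid cycle list had 0 of 13 higher and 5 lower there, among them Cs (citrate synthase, 28.5 against 66.5 CPM) and Fh1 (fumarase, 9.61 against 47.5 CPM). That count of 5 was not far above the 32.4% lower among neutrophil-like genes of at least 50 CPM. Of 16 tested genes for mitochondrial DNA expression, 4 were lower in monocyte-like and 3 in neutrophil-like barcodes, with Tfam, which packages and transcribes mitochondrial DNA, at 40.7 and 13.3 CPM against 81.7 CPM. The count in neutrophil-like barcodes was near the share of all genes, and that in monocyte-like barcodes was near the 22.4% lower among genes of at least 50 CPM. Among 10 carriers, Slc25a5 (ADP and ATP exchange) and Cycs (cytochrome c) were higher in monocyte-like barcodes, at 512 against 230 CPM and 210 against 113 CPM, and both were lower in neutrophil-like barcodes, where 5 of 10 were lower. The 2 carriers higher in monocyte-like barcodes were near the 18.6% higher among all tested genes. Of 21 further assembly factors, 1 was higher in monocyte-like barcodes and 2 were lower in neutrophil-like barcodes.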

How the data were processed

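The deposited 10x matrix of raw UMI counts (the authors ran Cell Ranger, 5.0.1 per the matrix header, on mm10, per the labels) was used as deposited. It held 31053 genes and 34 antibody tags. Barcodes of 300 to 5000 genes were clustered (2000 variable genes without members and receptor genes, regression on the RNA UMI number, 20 components, 20 neighbours, Louvain resolution 0.8 in igraph 0.11.9) and named from markers. Doublets (504 by Scrublet) were kept and removed in an alternative. Each class was summed within each library. A member differed from B-like barcodes when 1.5-fold apart with separate exact 95% Poisson intervals in all 3 libraries and at least 5 CPM in either class; between libraries, when the highest and lowest did so at 50 CPM or more in the class. Classes needed 20 kept barcodes per library. There were no replicates per group, so no p-value was computed. Members named were the 13 mt- genes, the 3 most counted nuclear genes per complex and for assembly, those with the largest class or library ratios, and isoform pairs; the rest are called members. The call rule was checked on drawn counts with known changes. Members and lists were chosen with earlier results of these data known.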

Additional observations from a re-analysis of the deposited data

Results flagged for a closer look

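Barcodes outside the 300 to 5000-gene range entered no comparison, and both sums were above 0 in them. Below 300 genes, the mt- genes took 19.3% of RNA UMIs in library 1 (595 barcodes), 28.2% in library 2 (278) and 20.7% in library 3 (161), and nuclear members took 0.496%, 0.517% and 0.524%. Above 5000 genes, the mt- genes took 2.19% in library 1 (43 barcodes), 2.51% in library 2 (16) and 2.94% in library 3 (20), and nuclear members took 3.17%, 2.68% and 2.46%. The order of the libraries above 5000 genes was, for both sums, that of all kept barcodes pooled. The make-up of the barcodes above 5000 genes was not tested.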

How the results depend on the processing

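No paired analysis was possible because the labels give 1 library per group and no replicate numbers. The direction of library order in the nuclear share (library 3 lowest) held in each alternative, and library 2 passed library 1 with the 5% limit and with per-barcode means. In library 1, 2 and 3 order, nuclear shares were 1.498%, 1.463% and 1.368% with no mt- limit, 1.61%, 1.62% and 1.54% at 5%, 1.72%, 1.59% and 1.49% without haemoglobin and immunoglobulin, 1.58%, 1.56% and 1.46% at 1000 UMIs or more, 1.39%, 1.39% and 1.29% as per-barcode means, 1.62%, 1.61% and 1.51% of non-mt- UMIs, and 1.52%, 1.49% and 1.40% for subunits alone. The mt- shares were 4.40%, 4.99% and 5.14% with no limit, 2.55%, 3.27% and 3.22% at 5%, 3.42%, 3.93% and 3.98% without haemoglobin and immunoglobulin, 3.07%, 3.79% and 3.86% at 1000 UMIs, 3.74%, 4.40% and 4.51% as per-barcode means, and 3.21%, 3.99% and 4.05% of non-mt- UMIs; removing doublets gave 3.82% in library 2 and 3.88% in library 3. Calls against B-like barcodes moved, with no limit, to 17 from 9 in NK-like and 8 from 3 in T-like barcodes, and at 5% to 14 from 23 in dendritic-like, 20 from 31 in monocyte-like and 0 from 3 in macrophage-like barcodes. Leaving out haemoglobin and immunoglobulin moved plasma-like calls to 43 from 26. At a fold of 2 they were 0 in NK-like, 0 in T-like, 2 in dendritic-like, 1 in macrophage-like and 6 in monocyte-like barcodes. Calls between libraries moved in B-like barcodes to 0 from 1 with no limit, 3 with no lower level and 0 at fold 2, in T-like to 5 with no lower level and 0 at fold 2, and in NK-like to 3 without doublets and 0 at fold 2. At fold 2 they were 2 in dendritic-like, 6 in macrophage-like, 0 in monocyte-like, 11 in neutrophil-like and 4 in plasma-like barcodes, and without haemoglobin and immunoglobulin 11 in plasma-like barcodes. The remaining 138 values, those without each library in turn included, stayed within 1.5 times the count or within the interval; leaving out cluster 23 was chosen after seeing the data. The cause was not tested.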
